A study of Mus musculus with 15 samples.

Results

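The genes described are the inhibitors of cyclin-dependent kinases, which hold back the cell cycle, the cyclin gene CCNA1, and MTAP, which lies beside CDKN2A and CDKN2B on the short arm of chromosome 9. The 9 members, of 25382 genes in the deposited count table, were CDKN2A, CDKN2B, CDKN2C and CDKN2D of the INK4 family, CDKN1A, CDKN1B and CDKN1C of the CIP/KIP family, CCNA1 and MTAP. They were chosen by name with values of these libraries in view. The absence of the chromosome 9 genes, and the levels of CCNA1 and CDKN2C in weakly and strongly adherent tumours, were part of that choice, so those values are descriptions with no test.

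The libraries are bulk RNA-seq of primary tumours that human MDA-MB-231 breast cancer cells formed in mice labelled Nod/Skid, dissociated into single cells before RNA was taken. All groups share the same cells, labelled MDAMB231 GFP+ Luc+, an established triple-negative line marked with a fluorescent protein and a luciferase. Cells were divided before injection by how firmly they held on under fluid shear. Weakly adherent cells are the class labelled with a shear of 10 dyn/cm2 (6 libraries), strongly adherent cells the class labelled with 50 dyn/cm2 (4 libraries), and unsorted cells were not sheared (5 libraries). Library titles also carry a number: 4, 5, 6 and 9 occur in all 3 groups, 7-8 in the unsorted and weakly adherent groups, and 10 in the weakly adherent group alone. What the number stands for is not in the labels, nor is it said that libraries came from separate animals, so p-values measure the spread between these libraries, which may be technical. No age or sex of the mice is given, and nothing says that host cells were removed.

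Progression from G1 into S phase is driven by cyclin D with CDK4 or CDK6 and by cyclin E with CDK2, which phosphorylate RB and release E2F factors. INK4 proteins bind CDK4 and CDK6 and keep them from cyclin D, whereas CIP/KIP proteins bind cyclin and kinase together and act mainly on CDK2. Loss of the CDKN2A and CDKN2B locus is among the common deletions of cancer, it is known in MDA-MB-231, and it often takes MTAP, an enzyme of methionine salvage, with it.

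Depth ranged from 30372619 to 45434799 counts per library, and levels are given as CPM, a gene's count relative to the depth of its library, after TMM scaling, a correction for RNA composition. VIM, a mesenchymal marker of this line, stood at 1143 to 7399 CPM, while the hormone receptor genes ESR1 and PGR reached at most 0.234 and 0.950 CPM. CDH1 encodes E-cadherin, which the line is generally described as lacking, and was singled out after its values were seen. It stood at 53.1 to 549 CPM in 12 libraries and at 0.267 to 5.56 CPM in the 3 libraries titled 6. The 3 libraries titled 6 were thus the lowest in CDH1 and the highest in VIM. A separation of all 3 from all 12 others held for 10.4% of genes tested with number 6 lower and for 5.63% with it higher. Those 3 libraries stood apart throughout: 4242 of 15190 genes tested differed between number 6 and the mean of the other numbers by edgeR's quasi-likelihood test, against at most 10 genes for any other number. That limit of 10 depends on the libraries: without weakly adherent library 6, number 10 had 228 genes, number 7-8 had 90 and number 5 had 41, and DESeq2 called 27 to 326 for these other numbers. Markers of host cells also varied, above all striated muscle genes, whose summed level was 2517 CPM in strongly adherent library 5, 141 to 851 CPM in the 3 libraries titled 6 and at most 12.4 CPM elsewhere. For weakly against strongly adherent, CCNA1 and CDKN2C are given with and without these libraries, and the other tested members as ranges without any 1 library.

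CDKN2A and CDKN2B had no count in any of the 15 libraries. CDKN2A encodes p16INK4a and, in another reading frame, p14ARF, and CDKN2B encodes p15INK4b. A count of 0 allows up to 3 counts per library, which is 0.0631 to 0.1001 CPM, and over all 15 libraries together 0.00534 CPM of the 562089009 counts; these limits cover counting error only. Zero counts were common in the table, as 18.6% of its genes had none in any library. The sources used here do not give how the authors' counting treated overlapping genes, and CDKN2B-AS1 overlaps CDKN2B. These are RNA counts, so they show no transcript at this depth and hold no measurement of DNA.

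MTAP was at the edge of detection, with 144 counts in all and 0 to 22 per library. The strongly adherent libraries 4, 5, 6 and 9 had 19, 20, 0 and 4 counts. Unsorted libraries 4, 5, 6, 7-8 and 9 had 10, 3, 5, 10 and 20 counts, and the 6 weakly adherent libraries ranged from 1 to 22 counts. Groups overlapped throughout, and their mean levels of MTAP were 0.249 ± 0.222 (n = 4), 0.284 ± 0.215 (n = 5) and 0.238 ± 0.211 CPM (n = 6, SD in each) for strongly adherent, unsorted and weakly adherent tumours. Whether the few reads were human or from the host cannot be told apart in these counts, which were made against the human genome alone.

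Around the locus, a list of 24 further genes of the chromosome arm was read, of which 23 are in the table. Of these, 13 had no count in any library: IFNB1, IFNW1, IFNA1, IFNA2, IFNA5, IFNA8, IFNA21, IFNE, MIR31HG, C9orf53, CDKN2B-AS1, DMRTA1 and LINGO2. Most of these are interferon genes, which many cells leave silent, so a count of 0 does not tell a lost gene from an unused one. PTPLAD2 had 2 counts in all, SLC24A2 had 16 and ELAVL2 had 19. Transcripts were found farther out on both sides. KLHL9, an adaptor of a ubiquitin ligase that lies among the interferon genes, had 22 to 168 counts per library, and FOCAD had 47 to 171. MLLT3, a component of the transcription elongation machinery, had 497 to 1176 counts, and TUSC1 on the other side had 514 to 1006. In the plot of counts along the arm, CDKN2A, CDKN2B and MTAP lie in a stretch at or near 0, with detected genes farther to the left and right. SLC24A2 and LINGO2, also at or near 0, were not drawn, and the detected KLHL9 lies between genes at 0. The extent of that stretch thus depends on the genes drawn, and it does not outline a deletion.

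**Figure D1:**
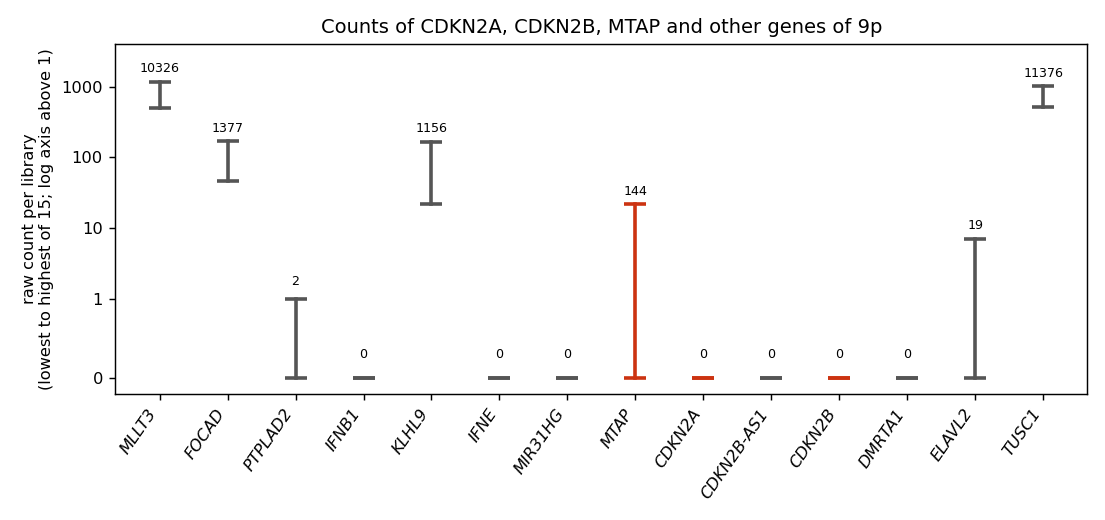
Raw counts per library of 14 genes in their usual order along the short arm of chromosome 9, not to scale; each bar runs from the lowest to the highest of 15 libraries on an axis that is linear up to 1 and logarithmic above, and the number above it is the total over all libraries. CDKN2A and CDKN2B (red) are at 0 and MTAP (red) reaches 22, while MLLT3 at the left edge and TUSC1 at the right have at least 497 and 514 counts in each library.

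Of the 9 members, 7 passed the filter on low counts and entered the fits, MTAP among them. Each of the 3 comparisons of adhesion groups was tested by edgeR's quasi-likelihood test. It called 0.0% of the 15190 genes tested at an adjusted p under 0.05 in each, and so none of the members. CCNA1 and CDKN2C were chosen for weakly against strongly adherent, so that outcome is not read for them there. At an unadjusted p under 0.05 the genes were 366 for weakly against strongly adherent, 81 for weakly adherent against unsorted and 572 for strongly adherent against unsorted. With the group as its one term DESeq2 called 0 in each as well. When the number was added as a block it called 35, 7 and 22 genes, or 0.169%, 0.0339% and 0.106%. These held no member, again with nothing read for CCNA1 and CDKN2C in weakly against strongly adherent. In bulk RNA, fewer cells that express a gene and less of its RNA per cell cannot be told apart, here or below.

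The members of the INK4 family that remained were CDKN2C and CDKN2D. CDKN2C encodes p18INK4c, an INK4 protein known in cell differentiation and as a gene that E2F factors switch on. CDKN2C stood at 44.6, 38.9, 32.0 and 45.4 CPM in the strongly adherent libraries 4, 5, 6 and 9. In the unsorted libraries 4, 5, 6, 7-8 and 9 it stood at 53.8, 56.0, 51.1, 52.3 and 45.1 CPM, and in weakly adherent ones the lowest, median and highest were 48.4, 54.6 and 68.6 CPM. Every weakly adherent library lay above every strongly adherent one, while the unsorted group overlapped with the strongly adherent one through library 9 and with the weakly adherent one through its 4 other libraries. Such a separation, with all weakly adherent libraries higher, held for 0.165% of genes tested, and for CDKN2C it was part of the choice, so nothing is read from it. The log2 fold change of CDKN2C was 0.51 ± 0.13 (SE) for weakly against strongly adherent, 0.15 ± 0.12 for weakly adherent against unsorted and -0.36 ± 0.13 for strongly adherent against unsorted. These 3 values share libraries and are not independent.

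Within a title number, weakly adherent exceeded strongly adherent tumours in CDKN2C in 4 of 4 numbers, which held for 5.17% of genes tested. The ratios were 1.18 for number 4, 1.28 for number 5, 1.77 for number 6 and 1.07 for number 9, so the number 6 pair was the widest and the number 9 pair nearly level. The log2 fold change of CDKN2C for weakly against strongly adherent was 0.42 without the 3 libraries titled 6, and 0.20 with the number as a block and without both those libraries and strongly adherent library 5. Against unsorted tumours the weakly adherent ones were higher in 3 of 5 numbers.

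CDKN2D encodes p19INK4d, an INK4 protein whose level is known to rise and fall through the cell cycle. CDKN2D stood at 36.6, 33.4, 60.6 and 50.9 CPM in the strongly adherent libraries 4, 5, 6 and 9. Its levels in the unsorted libraries 4, 5, 6, 7-8 and 9 were 47.6, 47.1, 66.1, 50.9 and 48.9 CPM, and the weakly adherent ones ran from 41.9 over a median of 48.0 to 77.1 CPM. All groups overlapped, and in each the library titled 6 was the highest. For weakly against strongly adherent the log2 fold change of CDKN2D was 0.19 ± 0.19 (SE), with an interval of 95% from -0.21 to 0.59, and it was not called by edgeR (adjusted p = 0.99998). The interval runs from somewhat lower to clearly higher, so similar levels are not shown. With the number as a block the log2 fold change was 0.24 ± 0.13 (SE), from -0.030 to 0.52 (edgeR, adjusted p = 0.720). Without any 1 library, and with no block, it ran from 0.046 to 0.37.

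CDKN1A encodes p21, the CIP/KIP protein that stress signals switch on. CDKN1A stood at 293, 280, 149 and 202 CPM in the strongly adherent libraries 4, 5, 6 and 9. In the unsorted libraries 4, 5, 6, 7-8 and 9 it had 250, 225, 153, 259 and 189 CPM, and in weakly adherent ones 156, 219 and 262 CPM at the lowest, median and highest. Groups overlapped fully, with the library titled 6 the lowest of each. The log2 fold change of CDKN1A was -0.11 ± 0.20 (SE) for weakly against strongly adherent, with an interval from -0.53 to 0.31 (edgeR, adjusted p = 0.99998). With the number as a block it was -0.12 ± 0.11, from -0.36 to 0.13 (edgeR, adjusted p = 0.828). Within numbers the weakly adherent library was higher in 2 of 4.

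CDKN1B encodes p27, whose amount is known to be set largely by degradation of the protein, which RNA does not measure. CDKN1B stood at 61.6, 55.9, 30.8 and 41.2 CPM in the strongly adherent libraries 4, 5, 6 and 9. In the unsorted libraries 4, 5, 6, 7-8 and 9 it had 43.9, 46.3, 29.6, 47.8 and 38.7 CPM, and the weakly adherent libraries had 28.1, 41.9 and 63.9 CPM at the lowest, median and highest. Library 6 was again the lowest of each group, and weakly adherent library 10 the highest of all. Strongly adherent tumours exceeded unsorted ones in 4 of 4 numbers, by ratios of 1.40, 1.21, 1.04 and 1.06 for numbers 4, 5, 6 and 9. As 10.7% of genes tested did the same, that count is ordinary for these libraries. For strongly adherent against unsorted the log2 fold change of CDKN1B was 0.20 ± 0.23 (SE), with an interval from -0.28 to 0.68 (edgeR, adjusted p = 0.975). With the number as a block it was 0.25 ± 0.11, from 0.0042 to 0.50 (edgeR, adjusted p = 0.595). For weakly against strongly adherent it was -0.08 ± 0.22, and with the block -0.26 ± 0.12, from -0.51 to -0.016 (edgeR, adjusted p = 0.710). The weakly adherent library was lower in 3 of 4 numbers. Intervals are unadjusted for the number of genes, and none of these contrasts was called.

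CDKN1C encodes p57, the CIP/KIP gene that is imprinted and expressed from the maternal copy. CDKN1C stood at 32.2, 25.4, 46.5 and 28.5 CPM in the strongly adherent libraries 4, 5, 6 and 9. In the unsorted libraries 4, 5, 6, 7-8 and 9 it had 31.1, 36.4, 40.2, 42.1 and 30.2 CPM, and in weakly adherent ones 23.9, 30.1 and 37.8 CPM at the lowest, median and highest. Weakly adherent tumours were below unsorted ones of the same number in 5 of 5, which held for 1.52% of genes tested. This was 1 of 21 combinations of member and comparison looked at. The ratios of CDKN1C were 0.987, 0.799, 0.939, 0.702 and 0.791 for numbers 4, 5, 6, 7-8 and 9, so the number 4 pair was all but level. By groups the ranges overlapped, and the log2 fold change of -0.22 ± 0.16 (SE), with an interval from -0.55 to 0.12, was not called by edgeR (adjusted p = 0.9997). It stayed between -0.30 and -0.15 in every alternative computed for it. With the number as a block it was -0.26 ± 0.12 (SE), with an interval from -0.51 to -0.0080 (edgeR, adjusted p = 0.9997). That interval is unadjusted for the number of genes.

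**Figure D2:**
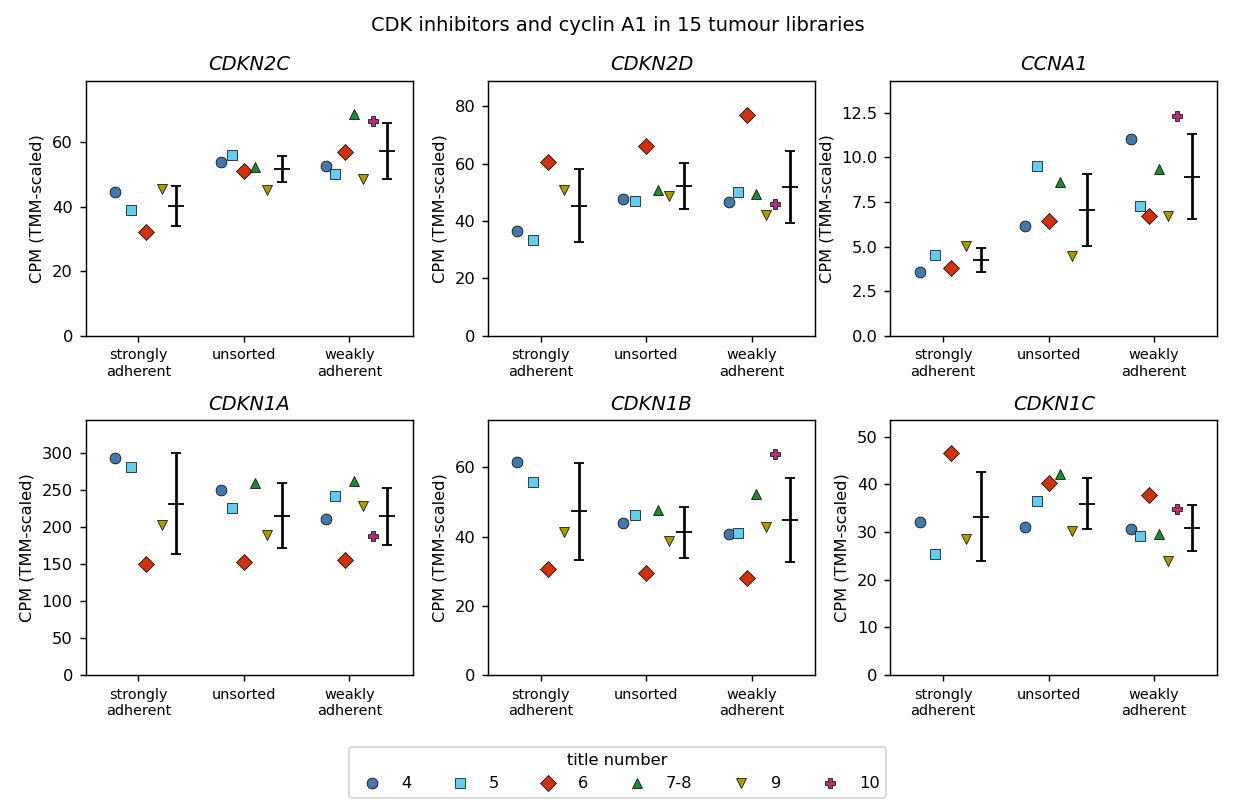
Level (TMM-scaled CPM, linear axes from 0) of 5 CDK inhibitors and CCNA1 in each library by adhesion group; symbols give the title number, and the black bar beside each group is the mean with its SD. In CCNA1 and CDKN2C the strongly adherent libraries lie below all weakly adherent ones, and in CDKN1A, CDKN1B and CDKN2D the red diamonds of number 6 lie at an end of every group.

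CCNA1 encodes cyclin A1, an A-type cyclin best known from the testis and from leukaemia, whereas CCNA2 serves most dividing cells. CCNA1 stood at 3.59, 4.52, 3.77 and 5.05 CPM in the strongly adherent libraries 4, 5, 6 and 9. Levels in the unsorted libraries 4, 5, 6, 7-8 and 9 were 6.17, 9.52, 6.41, 8.62 and 4.48 CPM, and weakly adherent libraries had 6.72, 8.33 and 12.3 CPM at the lowest, median and highest. The order of the means was strongly adherent, at 4.23 ± 0.677 CPM (SD, n = 4), then unsorted, at 7.04 ± 2.02 (SD, n = 5), then weakly adherent, at 8.91 ± 2.39 (SD, n = 6). Neighbours in that order overlapped: unsorted library 9 lay under strongly adherent library 9, and the unsorted and weakly adherent groups shared most of their range. The ends of the order did not overlap, with all 6 weakly adherent libraries above all 4 strongly adherent ones. That separation held for 0.165% of genes tested and is the pattern for which CCNA1 was chosen, so nothing is read from it.

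In the fit of CCNA1 the log2 fold change was 1.07 ± 0.24 (SE) for weakly against strongly adherent tumours, a 2.11-fold difference. It was 0.34 ± 0.22 for weakly adherent against unsorted and -0.74 ± 0.25 for strongly adherent against unsorted, again with shared libraries. Within numbers the weakly adherent library was higher than the strongly adherent one in 4 of 4, by ratios of 3.07 for number 4, 1.61 for number 5, 1.78 for number 6 and 1.33 for number 9. The background of 5.17% given for CDKN2C applies. Against unsorted libraries the weakly adherent ones were higher in CCNA1 in 4 of 5 numbers, with number 5 the exception at a ratio of 0.765, and the strongly adherent ones were lower in 3 of 4, with number 9 the exception at 1.13. Without the 3 libraries titled 6 the log2 fold change of CCNA1 for weakly against strongly adherent was 1.10, and 0.82 with the number as a block and without those libraries and strongly adherent library 5. Over 15 libraries CCNA1 had a coefficient of variation of 37.7%, above that of 86.3% of the 13138 genes with a mean of at least 1 CPM, while the 5 inhibitors detected had 18.5% to 24.3% against a median gene of 18.0%.

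**Figure D3:**
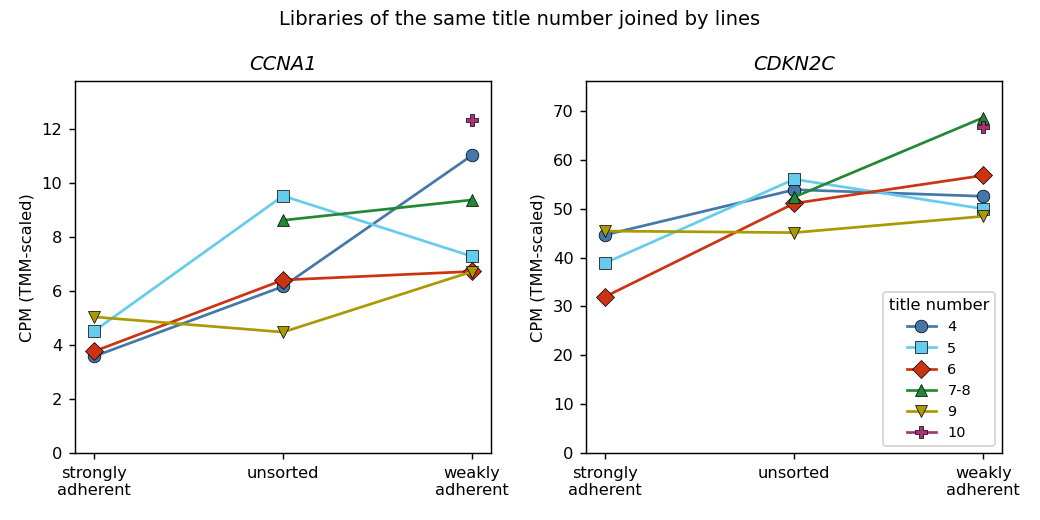
CCNA1 (left) and CDKN2C (right) in TMM-scaled CPM by adhesion group, with libraries of the same title number joined by a line; number 10 is a single weakly adherent library. Each of the 4 lines that reach both ends is higher at the weakly adherent end, with the steepest CCNA1 line in number 4 (3.59 to 11.02 CPM) and the flattest CDKN2C line in number 9 (45.4 to 48.4 CPM).

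Host cell markers in the groups of these comparisons ranged widely and overlapped. Striated muscle markers summed to 11.3 to 2517 CPM in strongly adherent, 4.94 to 851 in unsorted and 6.98 to 141 in weakly adherent libraries. Fibroblast markers summed to 201 to 1348, 376 to 922 and 298 to 1164 CPM in the same order, and endothelial markers to 38.7 to 224, 76.6 to 210 and 87.7 to 208 CPM. Macrophage and leukocyte markers reached at most 206 CPM and adipocyte markers at most 2.66 CPM. None of these lists had a member called between adhesion groups, where edgeR called 0.0% of all genes. That outcome therefore held for any list and does not show similar host content. The log2 fold change of CCNA1 was 1.11, and that of CDKN2C 0.49, without the muscle-rich strongly adherent library 5.

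Across libraries CCNA1 and CDKN2C went together. Pearson's r of their log2 CPM over 15 libraries was 0.82 and Spearman's rho 0.83, and r was 0.82 without the 2 libraries farthest from the median of CDKN2C and 0.82 in the 12 libraries outside number 6. Among 13138 genes CDKN2C was the one most like CCNA1, followed among named protein-coding genes by PCYT2 (r = 0.71) and REEP1 (r = 0.70). Both genes were chosen for one contrast, and libraries share groups and numbers, so the correlation is a description without a test. With the mean of each number subtracted, in 14 libraries, r between CCNA1 and CDKN2C was 0.73, and CDKN2C ranked 278 among the 13138 genes. The genes most like CCNA1 were then PSIP1 (r = 0.92), TIAM2 (r = 0.92) and ATP13A2 (r = 0.91). On that measure CCNA1 had r = -0.72 with CDKN1B, 0.64 with CDKN2D, -0.63 with CDKN1A and -0.06 with CDKN1C, so its link with CDKN2C did not stand alone.

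**Figure D4:**
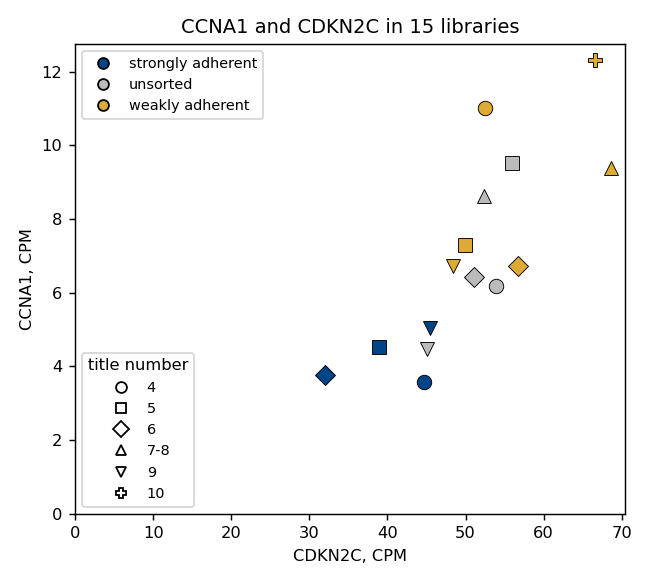
CCNA1 against CDKN2C, both in TMM-scaled CPM, for each of 15 libraries; colour gives the adhesion group and symbol the title number. The strongly adherent libraries sit at the lower left, from 32.0 to 45.4 CPM of CDKN2C, beside unsorted library 9, and the weakly adherent ones at 48.4 CPM or more.

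For CDKN2C the most similar genes were CCDC23 (r = 0.85), STMN1 (r = 0.84), which encodes the microtubule regulator stathmin, and CCNA1. With number means subtracted they were EXOSC8 (r = 0.96), the kinetochore gene NDC80 (r = 0.94) and HAUS8 (r = 0.93), whose product belongs to the spindle complex augmin. CDKN2D was most like TOMM6 (r = 0.96), FAM162A (r = 0.95) and FDX1L (r = 0.95), and with number means subtracted like C19orf53 (r = 0.96), FDX1L and DHPS (both at r of 0.94 or more). FDX1L, DHPS and C19orf53 lie on the same chromosome as CDKN2D. How often similar genes share a chromosome was not examined, so nothing is read from it. CDKN1A was most like RNF39 (r = 0.95), CDC42SE1 (r = 0.95) and STX6 (r = 0.94). With number means subtracted RNF39 (r = 0.95) and BDKRB2 (r = 0.94) were among its likest genes. RNF39 was thus close to CDKN1A on both measures, as FDX1L was to CDKN2D. CDKN1B was most like BAAT (r = 0.96), RBPMS (r = 0.95) and the calponin gene CNN2 (r = 0.95), and with number means subtracted like FAM60A (r = 0.99), BAAT and TMEM139. CDKN1C was most like RRP1 (r = 0.87), EID2 (r = 0.87) and the DNA glycosylase gene NEIL2 (r = 0.86), and with number means subtracted like FAM3A, FHOD1 and C1orf159 (r = 0.88 to 0.93). These genes were picked as among the most similar in a search over 13138 genes, in libraries that share groups and numbers. Subtracting number means also leaves fewer independent values than libraries. How high the largest r would be without any link between genes was not tested, so these values are descriptions.

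Between members, CDKN1A and CDKN1B had r = 0.77, and CDKN2D had -0.84 with CDKN1B and -0.80 with CDKN1A over 15 libraries. In the 12 libraries outside number 6 the same values were 0.39, -0.56 and -0.52. With the mean of each number subtracted, in 14 libraries, they were 0.81, -0.85 and -0.69. The values thus differed with how number 6 was treated: smaller without its libraries, and 2 of the 3 no smaller once number means were taken out.

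Title numbers were then compared with adhesion group in the fit. Any difference among the 6 numbers was called for 2 of the 7 tested members, where edgeR called 7.9% of genes: CDKN1B (adjusted p = 0.0130) and CDKN1A (adjusted p = 0.0232). The others were not called by edgeR, with adjusted p = 0.0598 for CDKN2D, 0.118 for CDKN1C, 0.360 for MTAP, 0.501 for CCNA1 and 0.637 for CDKN2C. Without the 3 libraries titled 6, edgeR gave an adjusted p = 0.303 for CDKN1B and 0.411 for CDKN1A. Both calls thus needed the libraries titled 6. The CDKN1A call was also lost without strongly adherent library 4 (0.0521) or 6 (0.106) and unsorted library 6 (0.0641) or 9 (0.0519), and the CDKN1B call without strongly adherent library 6 (0.0557). CDKN2D was called without strongly adherent library 9 (0.0315) and weakly adherent library 9 (0.0415) or 10 (0.0446). DESeq2 called CDKN2D (adjusted p = 0.0033) and CDKN1C (adjusted p = 0.0274) among the members that edgeR did not.

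Number 6 against the mean of the other numbers was called for 4 of the 7 members, where edgeR called 27.9% of genes, 11.6% as higher and 16.4% as lower. CDKN1B fell by 0.79 ± 0.12 on the log2 scale (SE, adjusted p = 0.0007 by edgeR), with 29.5 ± 1.36 CPM in 3 libraries against 48.0 ± 8.52 CPM in 12 (SD). CDKN1A fell by 0.59 ± 0.11 (SE, adjusted p = 0.0030 by edgeR), with 153 ± 3.13 against 236 ± 34.7 CPM. For both, all 3 libraries titled 6 lay below all 12 others, as did those of 10.4% of genes tested. CDKN2D rose by a log2 fold change of 0.59 ± 0.12 (SE, adjusted p = 0.0036 by edgeR), with 67.9 ± 8.40 against 45.8 ± 5.66 CPM. All 3 libraries titled 6 lay above all 12 others in CDKN2D, as they did for 5.63% of genes. The p21 and p27 genes were thus lower in number 6 where the p19 gene was higher, in all 3 adhesion groups.

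CDKN1C rose by 0.36 ± 0.12 (SE, adjusted p = 0.0407 by edgeR), with 41.5 ± 4.54 CPM in 3 libraries against 31.2 ± 4.89 CPM in 12 (SD) and overlap through unsorted library 7-8. Its call was lost with upper-quartile scaling (adjusted p = 0.0637) and without any 1 of strongly adherent library 4 (0.0650), 6 (0.220) or 9 (0.0503), unsorted library 4 (0.0590) or 9 (0.0608), and weakly adherent library 6 (0.0974), 7-8 (0.0637) or 9 (0.0532), all by edgeR. MTAP had 0, 5 and 1 counts in the strongly adherent, unsorted and weakly adherent libraries titled 6 and was not called by edgeR (adjusted p = 0.0566). DESeq2 (0.0261), limma on the deposited log2 values (0.0314) or with a pseudocount of 8 (0.0462), and edgeR without unsorted library 5 (0.0311) or weakly adherent library 9 (0.0483) gave adjusted p-values of MTAP under the threshold. CCNA1 and CDKN2C were not called by edgeR in number 6, with log2 fold changes of -0.37 ± 0.22 (adjusted p = 0.238) and -0.18 ± 0.13 (adjusted p = 0.311). No member was called for numbers 4, 5, 7-8, 9 or 10, where edgeR called 0.0%, 0.0%, 0.0658%, 0.0197% and 0.0% of genes.

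**Figure D5:**
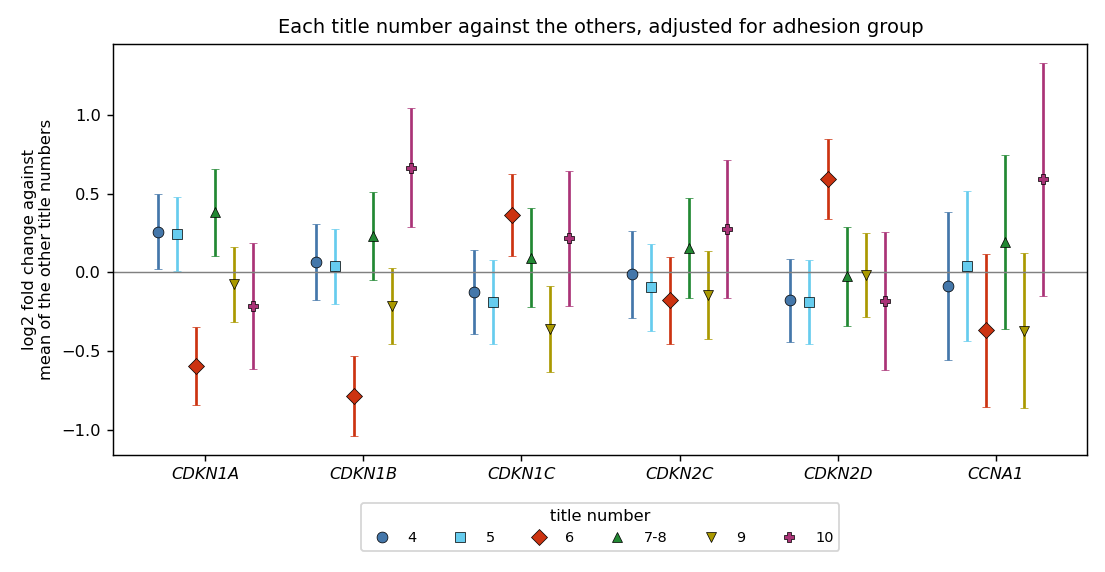
Log2 fold change of each title number against the mean of the other numbers, with adhesion group in the fit, for 6 members; bars are 95% intervals from edgeR, unadjusted for the number of genes. Number 6 (red diamonds) lies below 0 in CDKN1A and CDKN1B, at -0.59 and -0.79, and above 0 in CDKN2D and CDKN1C, at 0.59 and 0.36.

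Markers read for host cell types differed in number 6 too, in which edgeR called 11.6% of all genes higher and 16.4% lower. Fibroblast markers summed to 201 to 376 CPM in its 3 libraries and to 432 to 1348 CPM in the other 12, with 4 of 7 tested called lower by edgeR. Endothelial markers summed to 208 to 224 against 38.7 to 180 CPM, with 4 of 7 called higher. Neither sum overlapped between number 6 and the rest, and they differed in opposite directions. Striated muscle markers summed to 141 to 851 against 4.94 to 2517 CPM, with 6 of 12 called higher and 1 lower. Macrophage and leukocyte markers summed to 123 to 206 against 74.4 to 129 CPM, with 1 of 6 called higher (CD68) and 3 lower, and the adipocyte marker ADIPOQ was at 0 in all. Whether the reads of these markers were human or from the host cannot be told apart in these counts. The part of the markers in the inhibitors' differences was not tested.

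Among partners and targets of the inhibitors, 9 lists of named genes were read in every comparison, and none had a member called between adhesion groups, where edgeR called 0.0% of genes. For weakly against strongly adherent tumours CDK4, the kinase that INK4 proteins bind, had a log2 fold change of 0.15 ± 0.13 (SE). CCND1, its cyclin, had 0.01 ± 0.15, and CCNB1, the mitotic cyclin, had 0.09 ± 0.10. TFDP1 and E2F7 of the E2F family had -0.02 ± 0.11 and 0.17 ± 0.22. None of these genes was called. SMS and SAT1 of polyamine metabolism had -0.04 ± 0.19 and -0.16 ± 0.17, and the Polycomb gene KDM2B had 0.04 ± 0.12. The median log2 fold changes of the 12 cyclins (0.04), the 12 kinase genes (0.03) and the 13 genes of the RB and E2F family (0.03) lay near that of all genes (-0.02).

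Of the 12 cyclins in number 6, CCNG1 and CCND3, a partner of CDK4 and CDK6, were called higher and none lower, with a median log2 fold change of 0.25 against 0.01 over all genes and 27.9% of genes called. CCNG1 rose by 0.57 ± 0.10 (SE, adjusted p = 0.0014 by edgeR). CCND3 rose by 0.42 ± 0.14 (SE, adjusted p = 0.0377 by edgeR). Of the 12 kinase genes 3 were called higher and none lower: CCNH, at 0.55 ± 0.12 (adjusted p = 0.0056), CDK7, at 0.38 ± 0.11 (adjusted p = 0.0195), and the phosphatase gene CDC25B, at 0.31 ± 0.11 (adjusted p = 0.0473), all by edgeR. CCNH and CDK7 encode partners in the kinase that activates other CDKs. None of the 13 genes of the RB and E2F family was called (median 0.07), with TFDP1 at 0.01 ± 0.12 and E2F7 at 0.21 ± 0.17. Of 13 genes that turn over the p27 and p21 proteins only CUL4B, a ubiquitin ligase scaffold, was called, higher by 0.51 ± 0.13 (adjusted p = 0.0124 by edgeR).

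The list read for MTAP held genes of its pathway, methionine salvage, and also of polyamine metabolism, PRMT5 with its partners, and related enzymes. Of its 15 genes 5 were called higher in number 6 and none lower, with a median log2 fold change of 0.22. Over all genes 27.9% were called and 11.6% were higher. ODC1, which makes the polyamine putrescine, rose by 1.02 ± 0.15 (SE, adjusted p = 0.0008 by edgeR), with 390 ± 74.4 against 205 ± 40.7 CPM. RIOK1, a partner of the arginine methyltransferase PRMT5, rose by 0.69 ± 0.11 (adjusted p = 0.0012 by edgeR), and SMS, spermine synthase, by 0.58 ± 0.10 (adjusted p = 0.0015 by edgeR). PRMT5 itself, which is inhibited by the MTAP substrate, and the methionine salvage gene MRI1 were the other 2. Of 10 Polycomb genes, which repress the INK4 genes, 4 were called, against the same 27.9%. CBX7 rose by 0.81 ± 0.18 (adjusted p = 0.0062 by edgeR) and BMI1 was also higher, while EED fell by 0.51 ± 0.11 (adjusted p = 0.0052 by edgeR) and CBX8 by 0.54 ± 0.16 (adjusted p = 0.0240 by edgeR).

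Near CDKN1C, 1 of 8 tested neighbours was called in number 6, where 27.9% of all genes were: KCNQ1, a potassium channel gene that averaged 0.0178 CPM in number 6, under the floor of 3 counts, against 0.655 CPM in the other libraries (edgeR, adjusted p = 0.0044). Of the 7 tested genes around CDKN2A, KLHL9 alone was called, lower in number 6, at 0.720 ± 0.0438 against 2.38 ± 0.957 CPM (SD, n = 3 and 12; edgeR, adjusted p = 0.0036). The same 3 libraries held 6 of the 144 counts of MTAP, which was not called in number 6 by edgeR (adjusted p = 0.0566). Low counts of MTAP were not confined to number 6: strongly and weakly adherent libraries 9 had 4 and 1, and unsorted library 9 had 20. A link between KLHL9 and MTAP was not tested.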

How the data were processed

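Bulk RNA-seq of 15 tumour libraries was read from a table of raw counts per gene that the authors deposited. The human build hg19 and the tools STAR, HTSeq, DESeq2, cutadapt and FastQC are named in the submitters' processing notes, and per the labels' protocols libraries were stranded with single-end reads of 50 bases. The authors also deposited log2 values, which equal log2 of the count over a DESeq2 size factor plus 1. Members and gene lists were chosen with earlier results of these data known.

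Counts were scaled by TMM and fitted with edgeR 4.0.16 (R 4.3.3), by the quasi-likelihood test, over all 15 libraries with the adhesion group as the term, and again with group and title number. The 15190 of 25382 genes kept by edgeR's filter on low counts held nearly all counts. P-values were adjusted by Benjamini-Hochberg over all genes tested, at a threshold of 0.05, two-sided. The biological coefficient of variation was 33.6%. Alternatives used DESeq2 1.42.0, limma 3.58.1, other scalings, filters and left-out libraries. Named from each list are up to 3 called genes with the smallest p or, with none called, the 2 of highest level. Scripts were tested on simulated data. No 2 libraries of a group agreed within sampling noise. Sequences, coordinates and gene lengths were not used here, so levels of different genes are not compared. One of the gene lists and 1 similar gene are not reported here.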

Additional observations from a re-analysis of the deposited data

Results flagged for a closer look

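CDKN2D in unsorted library 6 stood at 66.1 CPM, far from the other 4 libraries of its group, the next of which had 50.9 CPM. In weakly adherent library 6 it stood at 77.1 CPM, with the next library at 50.2 CPM. These were 2 of 21 combinations of member and group examined, of which chance marks about 1 in 20. Both belong to title number 6, in which strongly adherent library 6 was also the highest of its group. The cause was not tested.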

How the results depend on the processing

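The 0 genes called between adhesion groups stayed 0 without any 1 library (range 0 to 0 in each comparison) and under each other alternative but one, DESeq2 with the title number as a replicate block, which called 35, 7 and 22 genes for weakly against strongly adherent, weakly adherent against unsorted and strongly adherent against unsorted. edgeR with the block called 0 in each. The title number was not taken to mark pairs of samples, so values within a number are only set side by side as the titles give them, and the block is an alternative: deviations from group means correlated between 0.0164 and 0.767 in 13 same-number pairs, 11 of them over 0.1, and 9 of 14 libraries were closest to their own number. Genes called for any difference among numbers were 1200, 3329 by DESeq2, 3 without number 6, 54 without number 6 and strongly adherent library 5, and 386 to 1621 without any 1 library. They were fewest without strongly adherent library 6 (386) or 4 (637) and unsorted library 6 (591), 9 (670) or 4 (749). For number 6 the count was 4242, and 1981 to 4231 without any 1 library, lowest without strongly adherent library 6. For the other numbers, counts of at most 10 became up to 21 without strongly adherent library 5. They became up to 228, 45 and 49 on leaving out the weakly adherent library 6, 9 or 10 in turn, and 79 without number 6. Without both number 6 and strongly adherent library 5 the counts were 172 for number 9 and 190 for number 10.

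Setting aside CCNA1 and CDKN2C for weakly against strongly adherent, no member was called between adhesion groups under any alternative. Several small log2 fold changes changed sign. With the number as a replicate block those for weakly adherent against unsorted were 0.036 for CDKN1A, -0.013 for CDKN1B and 0.0092 for CDKN2D by edgeR, and 0.032, -0.018 and 0.0055 by DESeq2. With the replicate block and without strongly adherent library 5 they were 0.037, -0.014 and 0.0079, CDKN1C had 0.0054 for strongly adherent against unsorted, and without number 6 as well CDKN1A had 0.041. Upper-quartile scaling gave 0.0053 for CDKN1A and 0.011 for CDKN2D. Without number 6, CDKN1C had 0.053 for weakly against strongly adherent and MTAP 0.079 for strongly adherent against unsorted, and limma on the deposited log2 values gave MTAP 0.11 for weakly against strongly adherent. Without any 1 library, weakly against strongly adherent ran from -0.27 to 0.024 for CDKN1A, -0.24 to 0.071 for CDKN1B, -0.21 to 0.11 for CDKN1C and -0.61 to 0.34 for MTAP. Weakly adherent against unsorted ran from -0.11 to 0.068 for CDKN1A, -0.0093 to 0.22 for CDKN1B, -0.16 to 0.093 for CDKN2D and -0.75 to 0.27 for MTAP, and strongly adherent against unsorted from -0.032 to 0.26 for CDKN1A and -0.58 to 0.36 for MTAP. The cause of these changes was not tested. CCNA1 kept its sign for weakly against strongly adherent in all alternatives computed, from 0.82 to 1.17, and CDKN2C from 0.20 to 0.57. Depth limits MTAP, at 22 counts or fewer per library, and sets the floor for CDKN2A and CDKN2B.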
